A study of Sus scrofa with 20 samples.

Results

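The bone morphogenetic protein (BMP) ligands described here are 8 genes, namely BMP2, BMP3, BMP4, BMP5, BMP6, BMP7, BMP10 and GDF2, out of 25764 genes with a row in the table of normalized counts. The members were found by gene name, each has a row, and all 8 were among the 15576 genes that passed the filter on low values. The set was chosen with the low RNA levels of BMP10 and GDF2 in pBTSCs already known, so the values of these 2 genes in pBTSCs against liver are given as a description without a test, and only the other 6 members were tested in those comparisons.

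The libraries were made from poly(A) RNA of pig cells. Cells called porcine biliary tree stem cells (pBTSCs), labelled as gallbladder and, by the study's account, isolated from the gallbladder together with extrahepatic bile ducts, gave 5 libraries, and liver cells sorted on surface proteins gave 15, in the groups CD45-/EpCAM+ with 4, CD45-/EpCAM- with 2, CD45+ with 5, CD31+ with 2 and CD146+ with 2. CD45 is the pan-leukocyte antigen, EpCAM an epithelial adhesion molecule, and CD31 and CD146 are surface proteins of endothelial cells, with CD146 also on pericytes. No treatment is named for any group. The pBTSC libraries S2, S7 and S11 came from newborn piglets carrying an H2B-GFP transgene, which places a histone-bound green fluorescent protein under the ACTB locus in all tissues, and S15 and S20 came from newborn wild-type piglets. The labels do not say from which animal, or at what age, each liver library came, so libraries of different liver sorts may share an animal. The p-values therefore measure the spread between these libraries, which may be partly technical. All pBTSC libraries came from the gallbladder and extrahepatic bile ducts and all other libraries from the liver, so organ, isolation and cell type cannot be told apart there.

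BMP ligands are secreted dimers of the TGF-beta superfamily that bind type I and type II serine/threonine kinase receptors, after which SMAD1, SMAD5 and SMAD9 are phosphorylated and enter the nucleus with SMAD4. BMP10 and GDF2 (also called BMP9) circulate in blood, bind ALK1 (ACVRL1) on endothelial cells with high affinity and are made in the liver chiefly by hepatic stellate cells, BMP10 also by the right atrium. BMP2 and BMP6 come chiefly from liver sinusoidal endothelial cells and induce hepcidin (HAMP), the iron-regulating hormone of hepatocytes, whereas BMP3 is an atypical ligand that counteracts other BMPs.

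Of the 20 libraries, 17 held between 21200000 and 77800000 estimated reads, while S13 (CD45-/EpCAM+), S15 (pBTSCs) and S22 (CD146+) held between 455000 and 1570000, so that a value of 0 in these 3 is weak evidence of a low level. The study lists scores of RNA integrity for the pBTSC RNA, lowest in S7 and highest in S20. It lists none for S15 or for the liver libraries, and the part of RNA quality in the values below was not tested. Below, a gene is said to be called where limma, a linear model fitted to all genes, gave it an adjusted p below 0.05 together with a log2 fold change beyond 1 in either direction. Higher genes made up 59.0% of the calls against CD45-/EpCAM+, 54.7% against CD45-/EpCAM-, 53.6% against CD45+ and 59.0% against CD31+ and CD146+, and 72.6%, 75.4%, 66.8% and 71.7% in the same order when each library was rescaled to the same total. The liver sorts were hardly separated by the genes that encode their sorting antigens. PTPRC, which encodes CD45, ranged from 424 to 2687 normalized counts in CD45+ libraries and from 450 to 3027 in CD45-/EpCAM+ libraries, and EPCAM ranged from 1175 to 2232 in the former and from 1205 to 1779 in the latter. In the CD45-/EpCAM- libraries S5 and S14 EPCAM was 1090 and 491, below all CD45-/EpCAM+ libraries. ALB, which encodes the hepatocyte product albumin, was between 513084 and 1789958 in all liver libraries, whatever the sort. EPCAM in pBTSCs, from 884 to 2075, lay within the range of the liver libraries, 491 to 2232. In pBTSCs ALB was 376, 287 and 288 in S2, S7 and S11 but 19832 and 25087 in S15 and S20.

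BMP10 and GDF2 were the members with a nearly complete absence of RNA in pBTSCs. The BMP10 level in pBTSCs was 0.454 normalized counts in S2, 2.07 in S7, 2.54 in S11, 0 in S15 and 1.44 in S20. These levels amount to 2, 8, 4, 0 and 3 estimated reads. In the 15 liver libraries the BMP10 level ran from 527 through a median of 731 to 1259.5 normalized counts. The lowest liver library was thus 207-fold above the highest pBTSC library, and the liver median 287-fold above it. The single BMP10 zero came from the shallow library S15, where 3 reads correspond to 37.7 normalized counts, so there the gene was not detected at a level well below that of liver.

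GDF2 had the same shape. Its level in pBTSCs was 1.13 normalized counts in S2, 0.775 in S7, 1.27 in S11, 0 in S15 and 3.83 in S20, or 5, 3, 2, 0 and 8 estimated reads. In liver it ran from 409 through a median of 856 to 1376 normalized counts. The lowest liver library was 107-fold and the liver median 223-fold above the highest pBTSC library. On the log2(normalized count + 1) scale, the differences of pBTSCs from CD45-/EpCAM+, CD45-/EpCAM-, CD45+ and the mean of CD31+ and CD146+ were -8.71, -8.27, -8.45 and -8.51 for BMP10. For GDF2 they were -8.72, -8.15, -8.68 and -8.50. These comparisons share the same 5 pBTSC libraries, and the set was chosen on these differences. Among all genes tested, 9.21% were lower in every pBTSC library than in every liver library.

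**Figure D1:**
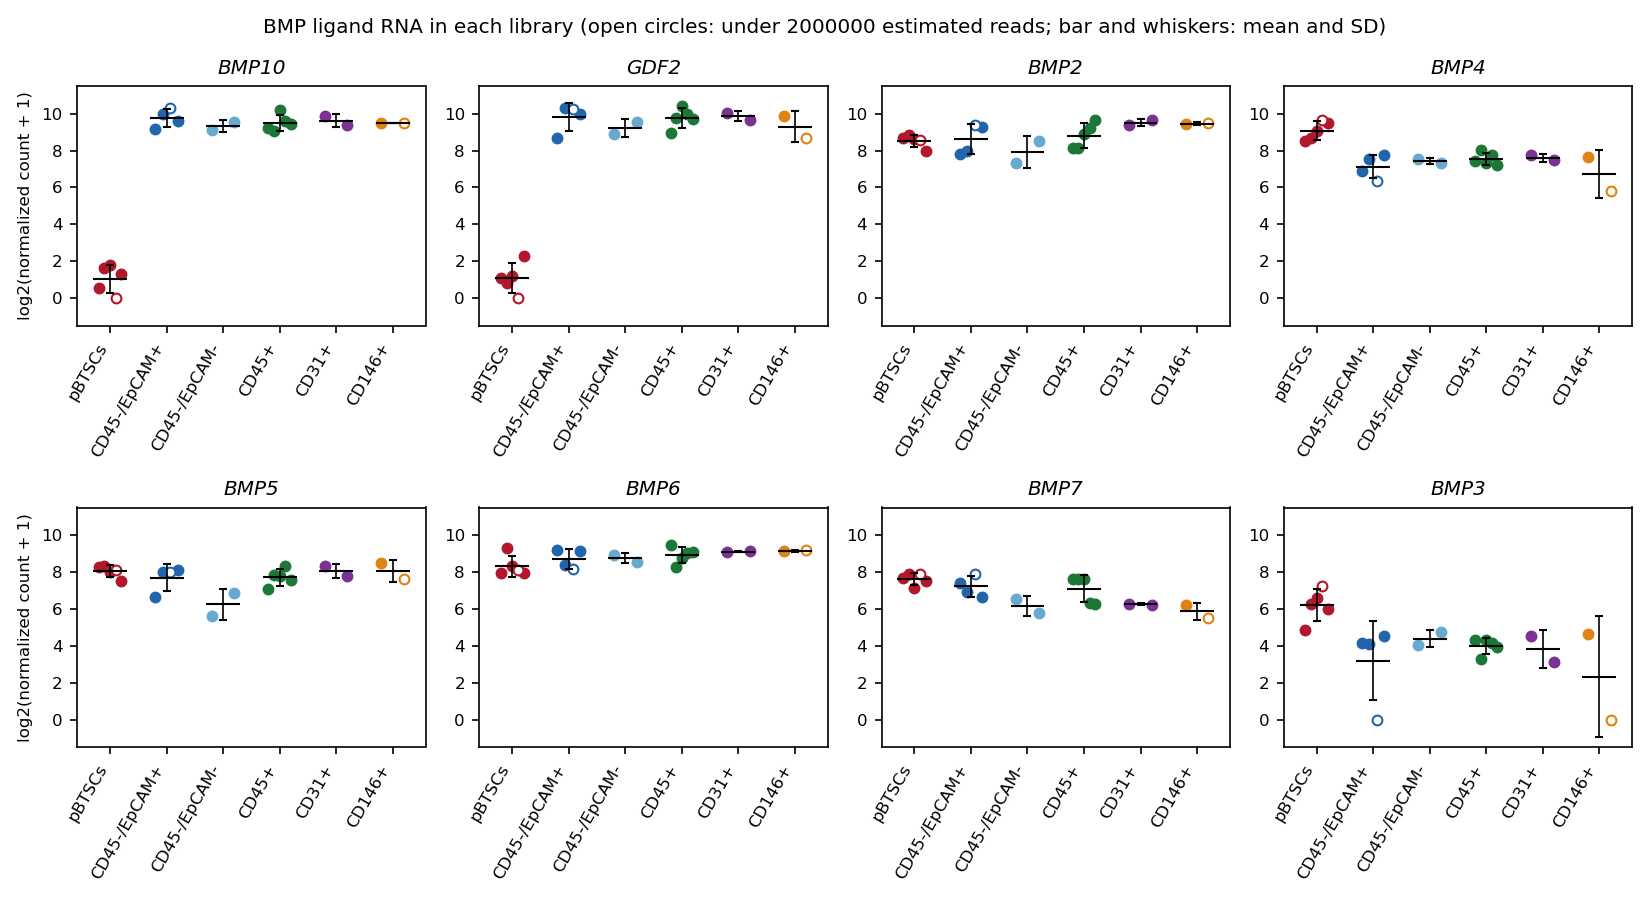
Level of each ligand gene as log2(normalized count + 1) in every library of the 6 groups, with open circles for the 3 libraries under 2000000 estimated reads, and the mean and SD of each group as a bar with whiskers. BMP10 and GDF2 lie at or below 3.83 normalized counts in all pBTSC libraries and at or above 409 in all liver libraries, whereas BMP3 and BMP4 lie higher in every pBTSC library than in any liver library.

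Several, though not all, markers of the liver cells that are known for making these 2 ligands moved in the same direction. LRAT, which encodes the retinol-esterifying enzyme of stellate cells, was 2.14, 2.20, 3.33, 13.2 and 7.03 normalized counts in S2, S7, S11, S15 and S20, and between 176 and 1323 in the liver libraries. LHX2, a LIM-homeobox factor of stellate cells, was between 1.62 and 26.3 in pBTSCs and between 54.6 and 511 in liver. Of the 10 stellate cell markers listed, 6 were called lower in pBTSCs against CD45-/EpCAM+ (LRAT, LHX2, COLEC10, COLEC11, HHIP and HGF) and 1, RGS5, was called higher. In this comparison 10.3% of all genes were called lower and 14.8% higher. RELN, NGFR and PDGFRB were not called. RGS5 is also a pericyte and smooth muscle gene, and its call was lost without the 3 shallow libraries (log2 fold change 1.29, adjusted p = 0.0921). Against CD45-/EpCAM- without the shallow libraries, RGS5 (3.59, adjusted p = 0.000466) and PDGFRB (2.26, adjusted p = 2.9e-05) were called higher. The same 6 markers as above were called lower there. With all libraries, 20% of all genes were called higher and 16.6% lower in that comparison. The summed level of the stellate cell list overlapped between pBTSCs (25437 to 35125) and liver (12961 to 52468), no marker of the list being at or under 3 reads in all pBTSC libraries. All 8 sinusoidal endothelial markers and all 8 hepatocyte markers were also called lower in pBTSCs against CD45-/EpCAM+, 7 and 8 of them without the shallow libraries. Of 7 leukocyte and Kupffer cell markers tested, 4 were called lower and 0 higher. Those lower were the macrophage genes MARCO (-4.51 ± 0.49), CD163 (-3.53 ± 0.49), CD68 (-3.29 ± 0.45) and VSIG4 (-2.82 ± 0.35). Without the shallow libraries these 4 were still called lower, and CD3E of the same list was called higher (1.88, adjusted p = 0.0221). The general endothelial markers did not follow the sinusoidal ones. VWF (2.39 ± 0.28), which encodes von Willebrand factor, and PECAM1 (1.29 ± 0.29), which encodes CD31, were called higher, the other 6 of 8 were not called, and the summed level of this list was 88298 to 114244 in pBTSCs and 23051 to 106743 in liver, with an overlap. Of 4 biliary epithelial markers tested, 1 was called lower and 0 higher. The part of these cells in the low BMP10 and GDF2 values was not tested, and in bulk RNA fewer cells of a type and less RNA per cell cannot be told apart.

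BMP4 was the member that rose in pBTSCs against every liver group. BMP4, a ligand of mesenchymal cells that acts in the specification of the hepatic endoderm, was at 369.7 normalized counts in S2, 414 in S7, 526 in S11, 819 in S15 and 712 in S20. In the liver libraries it ran from 54.5 through a median of 176 to 259.8 normalized counts. The value of 54.5 is that of the shallow library S22, on an estimated 1.05 reads, and the shallow library S13 held 80.6 on 3.13 reads. The lowest pBTSC library therefore stood above the highest liver library. The pBTSC libraries with the highest BMP4, S15 and S20, are those of the wild-type piglets. The log2 fold change was 1.95 ± 0.36 (SE) against CD45-/EpCAM+ (adjusted p = 0.000409), 1.64 ± 0.45 against CD45-/EpCAM- (adjusted p = 0.00657), 1.54 ± 0.34 against CD45+ (adjusted p = 0.00216) and 1.92 ± 0.36 against CD31+ and CD146+ (adjusted p = 0.000605). In the same fit 14.8%, 20%, 11% and 12.6% of all genes were called higher in these comparisons, in this order. Without the shallow libraries the BMP4 differences were smaller, at 1.54, 1.49, 1.39 and 1.31 in the same order, and each was still called. Without S14 only 1 CD45-/EpCAM- library remained and the BMP4 difference from it was 1.53 with an adjusted p of 0.0501.

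BMP3 was also higher in all pBTSC libraries than in all liver libraries, at a low level. It was 28.4 normalized counts in S2, 75.9 in S7, 97.3 in S11, 151 in S15 and 63.7 in S20. In the 13 liver libraries that were not shallow it ran from 7.63 through a median of 16.8 to 25.6, and it was 0 in the shallow liver libraries S13 and S22. With 3 reads corresponding to 77.1 normalized counts in S13 and to 156 in S22, those 2 zeros do not show a level below that of the other liver libraries. The gap between the lowest pBTSC library, S2, and the highest liver library, S14, was small beside the spread among pBTSCs. Of all genes tested, 11.9% were higher in every pBTSC library than in every liver library, and BMP3 and BMP4 were 2 of the 6 members tested.

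The size of the BMP3 difference depended on the shallow libraries. With all libraries the log2 fold change was 3.0 ± 0.92 against CD45-/EpCAM+ (adjusted p = 0.0158) and 3.13 ± 0.92 against CD31+ and CD146+ (adjusted p = 0.0157), both called, whereas 1.80 ± 1.15 against CD45-/EpCAM- (adjusted p = 0.201) and 2.20 ± 0.87 against CD45+ (adjusted p = 0.0593) were not. Without S13, S15 and S22 the log2 fold changes were 1.67, 1.54, 1.94 and 1.70 against CD45-/EpCAM+, CD45-/EpCAM-, CD45+ and CD31+ and CD146+, with adjusted p-values of 0.00889, 0.0183, 0.00139 and 0.0139. BMP3 was thus called against each of the 4 liver groups when only the deeper libraries were used. Leaving out S13 alone gave 1.93 against CD45-/EpCAM+ (adjusted p = 0.061), and leaving out S22 or S21 alone gave 1.96 (adjusted p = 0.124) or 2.76 (adjusted p = 0.0766) against CD31+ and CD146+.

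BMP7, a ligand best known from the kidney collecting system and from epithelia, was called higher in pBTSCs against some liver groups. Its level was 202 normalized counts in S2, 236 in S7, 139.9 in S11, 236 in S15 and 184 in S20. The CD45-/EpCAM+ libraries S4, S9, S13 and S19 held 166, 122, 241 and 98.7, and the CD45+ libraries ran from 77.5 through a median of 194 to 200.04, both overlapping the pBTSC range. The CD45-/EpCAM- libraries S5 and S14 held 91.5 and 53.9, and the CD31+ libraries S16 and S21 held 77.4 and 73.8. The CD146+ library S17 held 73.0. All of these were below the lowest pBTSC library. The shallow CD146+ library S22 held 45.1 on an estimated 0.86 reads. With 3 reads corresponding to 156 normalized counts there, S22 does not show a level below that of pBTSCs. The log2 fold change was 1.47 ± 0.45 against CD45-/EpCAM- (adjusted p = 0.0122) and 1.56 ± 0.36 against CD31+ and CD146+ (adjusted p = 0.00315). Against CD45-/EpCAM+ and CD45+ it was 0.40 ± 0.36 and 0.52 ± 0.34 (adjusted p = 0.403 and 0.263). Without the shallow libraries the differences from CD45-/EpCAM- and from CD31+ and CD146+ were 1.40 and 1.32 (adjusted p = 0.0132 and 0.0228). Without S14 the call against CD45-/EpCAM- was lost (1.09, adjusted p = 0.141).

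BMP5, a ligand close in sequence to BMP6 and BMP7, differed from pBTSCs in CD45-/EpCAM- cells. It was 305, 318, 253, 275 and 181 normalized counts in S2, S7, S11, S15 and S20, against 49.1 and 114 in the CD45-/EpCAM- libraries S5 and S14. Each pBTSC library was above both of these. The other liver libraries, from 98.2 to 357, overlapped the pBTSC range. The log2 fold change against CD45-/EpCAM- was 1.79 ± 0.43 (adjusted p = 0.00278) with all libraries and 1.19 without S5 (adjusted p = 0.115). Against CD45-/EpCAM+, CD45+ and CD31+ and CD146+ the differences of 0.34 ± 0.35, 0.31 ± 0.33 and -0.02 ± 0.35 did not pass the test (adjusted p = 0.472, 0.502 and 0.976).

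BMP2 and BMP6, the ligands upstream of hepcidin, were called in none of the 4 comparisons. BMP2 was 413, 462, 389.6, 377 and 253 normalized counts in S2, S7, S11, S15 and S20, inside the liver range of 159 to 799. Its log2 fold changes ran from -0.95 ± 0.38 against CD31+ and CD146+ (adjusted p = 0.0658) to 0.62 ± 0.47 against CD45-/EpCAM- (adjusted p = 0.287). BMP6 was 243, 632, 319.5, 272 and 250.3 in the same order, against 284 to 709 in liver. The pBTSC library S7 stood apart from the other 4, which lay between 243 and 319.5. The log2 fold changes of BMP6 were -0.40 ± 0.30, -0.41 ± 0.37, -0.60 ± 0.28 and -0.80 ± 0.30 against CD45-/EpCAM+, CD45-/EpCAM-, CD45+ and CD31+ and CD146+, and the last of these reached an adjusted p of 0.05 without reaching the fold threshold. Leaving out S7 moved it to -1.04 (adjusted p = 0.00669), which is past both thresholds. When all libraries were set to an equal sum of counts, the 4 BMP6 values became -0.09, 0.07, -0.36 and -0.51, so the sign against CD45-/EpCAM- turned.

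Counted over the 6 members tested, 2 were called higher against CD45-/EpCAM+, 3 against CD45-/EpCAM-, 1 against CD45+ and 3 against CD31+ and CD146+, and none was called lower. Of all genes, 14.8%, 20%, 11% and 12.6% were called higher in these comparisons, in this order. The shares called lower were 10.3%, 16.6%, 9.54% and 8.75%. Without the shallow libraries the counts were 2, 4, 2 and 3.

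**Figure D2:**
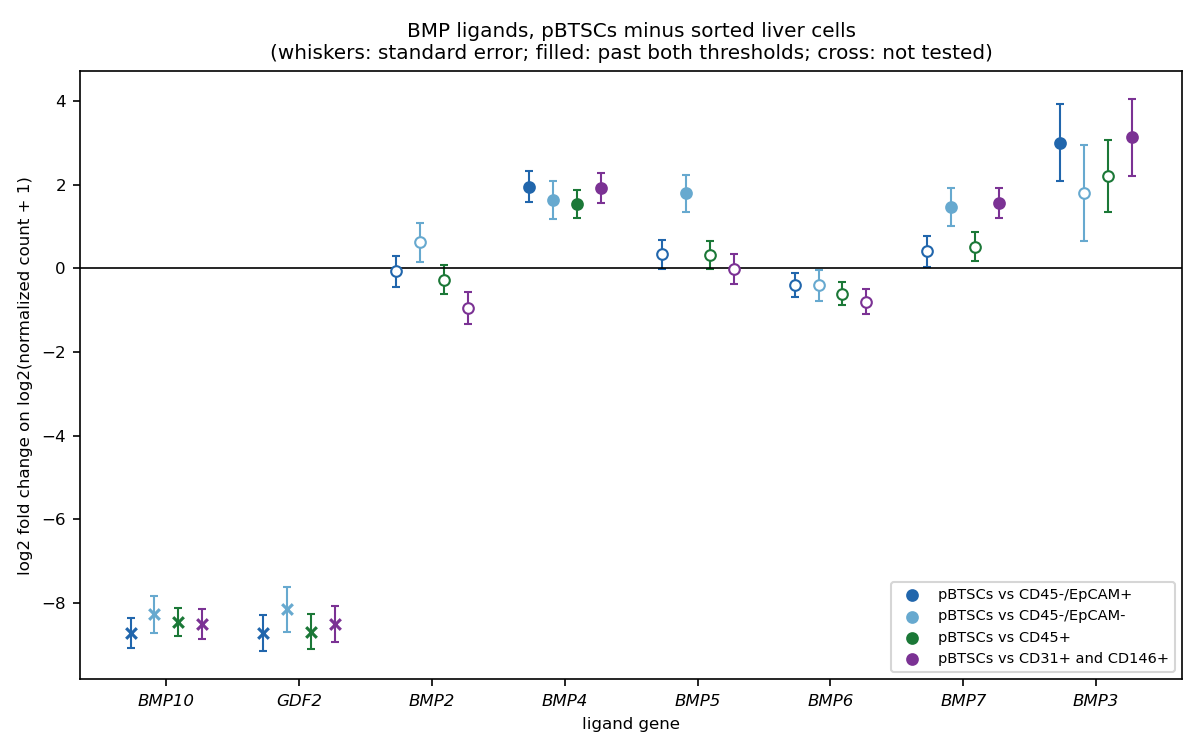
Log2 fold change of each ligand gene in pBTSCs against 4 liver groups, on the log2(normalized count + 1) scale, with the standard error as whiskers, filled circles for calls, open circles for tested differences that were not called, and crosses for BMP10 and GDF2, which were not tested. BMP4 is filled in all 4 comparisons, and BMP10 and GDF2 lie between -8.15 and -8.72.

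Markers of stromal cells were higher in pBTSCs than in liver, as were BMP3 and BMP4. All 5 fibroblast markers (DCN, LUM, COL1A1, COL3A1 and PDGFRA) were called higher in pBTSCs against each liver group (4 of 5 against CD45-/EpCAM+ and against CD31+ and CD146+ without the shallow libraries), and their summed level ran from 283252 to 1358964 in pBTSCs and from 22669 to 124167 in liver, with no overlap. COL1A1, the major chain of type I collagen, was 129439.9 and 141140.3 in S2 and S7 but 381293, 581225 and 543321 in S11, S15 and S20. The order of BMP4 over the pBTSC libraries was that of COL1A1 and PDGFRA. It was not that of DCN, COL3A1 and LUM, which were highest in S20, and BMP3 had another order. The summed level of the smooth muscle markers was 74493 to 171398 in pBTSCs and 10383 to 90931 in liver, with an overlap. The part of these cells in the BMP3 and BMP4 values was not tested.

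Of the other ligands of the BMP branch, 6 of 8 listed had a row and 3 passed the filter on low values. GDF6 was called higher in pBTSCs against CD45-/EpCAM- (3.01 ± 0.53). GDF10 was called against CD31+ and CD146+ (2.93 ± 0.98), a call that was lost without the shallow libraries (0.92, adjusted p = 0.311), since S22 held a GDF10 value of 0. GDF9 was not called in any of the 4 comparisons with pBTSCs. BMP15, GDF5 and GDF7 stayed under the filter.

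Among the antagonists of BMP signalling, several rose more in pBTSCs against CD45-/EpCAM+ than any of the 6 members tested. Most of those listed are secreted proteins, whereas BAMBI is a membrane pseudoreceptor, which was tested with them and not called (-0.79 ± 0.32). Against CD45-/EpCAM+, 8 of 14 tested genes listed here as antagonists were called higher and 3 lower, beside 14.8% and 10.3% of all genes. They were listed by name, KCP, SOST and SOSTDC1 included, and their action on BMP signalling in these cells was not tested. The median log2 fold change of the 14 genes, BAMBI included, was 1.32, against 0.08 for all genes. GREM1 (gremlin 1), an antagonist of BMP2, BMP4 and BMP7, was 369.6, 692, 431, 458 and 339 normalized counts in S2, S7, S11, S15 and S20. In the liver libraries GREM1 ran from 0 to 13.4, so all pBTSC libraries stood well apart. Its log2 fold change was 7.59 ± 0.71 (adjusted p = 3.62e-07). CHRDL1 (chordin-like 1) was 519.8 to 3082 in pBTSCs and 0 to 125 in liver, with a log2 fold change of 5.81 ± 0.98, or 3.98 ± 0.53 without the shallow libraries. CHRDL2 was 36.9 to 565 in pBTSCs and 0 to 13.8 in liver, with a log2 fold change of 5.62 ± 0.89, or 4.58 ± 0.90 without the shallow libraries.

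The antagonists that fell included chordin and noggin, both classical inhibitors of embryonic BMP signalling. CHRD (chordin) was 417, 537, 354, 444 and 285 normalized counts in S2, S7, S11, S15 and S20, against 995 to 5563 in the liver libraries, with no overlap and a log2 fold change of -2.47 ± 0.42 against CD45-/EpCAM+. BMPER (crossveinless 2), which can both oppose and promote BMP signalling, was 145 to 369.6 in pBTSCs and 653 to 2499 in liver, again without overlap, with a log2 fold change of -2.33 ± 0.39. NOG (noggin) was low in all groups, at 0 to 13.96 in pBTSCs and 5.04 to 68.7 in liver, and its log2 fold change of -2.68 ± 0.88 lost its call without the shallow libraries (-1.84, adjusted p = 0.139). FSTL3 was also lost then (1.07, adjusted p = 0.061), leaving 7 antagonists higher and 2 lower. Against CD45-/EpCAM-, CD45+ and CD31+ and CD146+, 7, 6 and 6 antagonists were called higher and 2, 3 and 3 lower. The shares of all genes called there were 20%, 11% and 12.6% higher and 16.6%, 9.54% and 8.75% lower.

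Among the receptors and co-receptors, 4 of 11 tested were called higher in pBTSCs against CD45-/EpCAM+ and 0 lower, beside 14.8% and 10.3% of all genes. RGMA, a glycosylphosphatidylinositol-anchored BMP co-receptor, was 787, 846, 781, 820.1 and 857 normalized counts in S2, S7, S11, S15 and S20 and 0 to 213 in liver. Its 5 pBTSC values lay close together and far above all liver values, with a log2 fold change of 4.60 ± 1.0, or 2.91 ± 0.35 without the shallow libraries, S13 being at 0. RGMB, another co-receptor of the family, was 218 to 311 in pBTSCs and 18.5 to 179.99 in liver, with a log2 fold change of 1.75 ± 0.43. ACVR2B, a type II receptor, was called at 2.40 ± 0.89, and the call was lost without the shallow libraries (0.89, adjusted p = 0.0468), as was that of ACVR2A (0.73, adjusted p = 0.0107), while BMPR1B was then called (1.39, adjusted p = 0.0436). ACVRL1, the receptor with high affinity for BMP10 and GDF2, was 3987, 3893, 3357, 4111 and 4699 in the pBTSC libraries S2, S7, S11, S15 and S20, and 804 to 2868 in liver. Its log2 fold change was 0.90 ± 0.20 against CD45-/EpCAM+, below the fold threshold, and 1.67 ± 0.25 against CD45-/EpCAM-, where it was called. Against CD45-/EpCAM-, CD45+ and CD31+ and CD146+, 8, 2 and 2 of the receptors and co-receptors were called higher and 0 lower. The shares of all genes called there were 20%, 11% and 12.6% higher and 16.6%, 9.54% and 8.75% lower.

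Of the 5 SMAD genes tested, SMAD9 (1.45 ± 0.25) and SMAD1 (1.28 ± 0.22) were called higher in pBTSCs against CD45-/EpCAM+ and 0 lower. Both are receptor-activated SMADs of the BMP branch. SMAD5, which is another, was not called (0.61 without the shallow libraries). Of 10 genes known to respond to BMPs, MSX2 (3.94 ± 0.65) and HEY2 (1.60 ± 0.29) were called higher and 0 lower. Of all genes, 14.8% were called higher and 10.3% lower in this comparison. MSX2, a homeobox factor, was 25.1 to 66.9 normalized counts in pBTSCs and 0 to 15.3 in liver. The inhibitor-of-differentiation genes ID1, ID2, ID3 and ID4, the most widely used BMP response genes, were not called against CD45-/EpCAM+, with log2 fold changes of 0.28 ± 0.23, -0.77 ± 0.25, 0.38 ± 0.33 and 0.49 ± 0.29. HAMP was 0.227, 4.13, 3.19, 0 and 1.92 in the pBTSC libraries, but it also ranged from 0 to 5847 in liver, and its difference of -5.63 ± 2.18 from CD45-/EpCAM+ was not called (adjusted p = 0.0502). Against CD45-/EpCAM-, CD45+ and CD31+ and CD146+, 3, 2 and 0 SMAD genes were called higher and 0, 1 and 0 lower. Of the response genes 5, 2 and 1 were called higher there and 2, 0 and 0 lower, those lower being ID2 and HAMP, and HAMP lost its call without the shallow libraries (-7.27, adjusted p = 0.0539). The shares of all genes called there were 20%, 11% and 12.6% higher and 16.6%, 9.54% and 8.75% lower.

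Of the 4 proprotein convertases, the proteases that cleave BMP precursors, PCSK5 was called higher (1.79 ± 0.46) and PCSK6 (-2.34 ± 0.35) and FURIN (-1.30 ± 0.14) lower in pBTSCs against CD45-/EpCAM+. Of all genes, 14.8% were called higher and 10.3% lower there. FURIN was 2252 to 2877 normalized counts in pBTSCs and 4657 to 7210 in liver, and PCSK6 was 629 to 1002 in pBTSCs and 1585 to 8182 in liver. With PCSK7, whose log2 fold change was then 1.0004 (adjusted p = 0.00497), 2 convertases were called higher without the shallow libraries. For FURIN and PCSK6 all pBTSC libraries lay below all liver libraries.

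**Figure D3:**
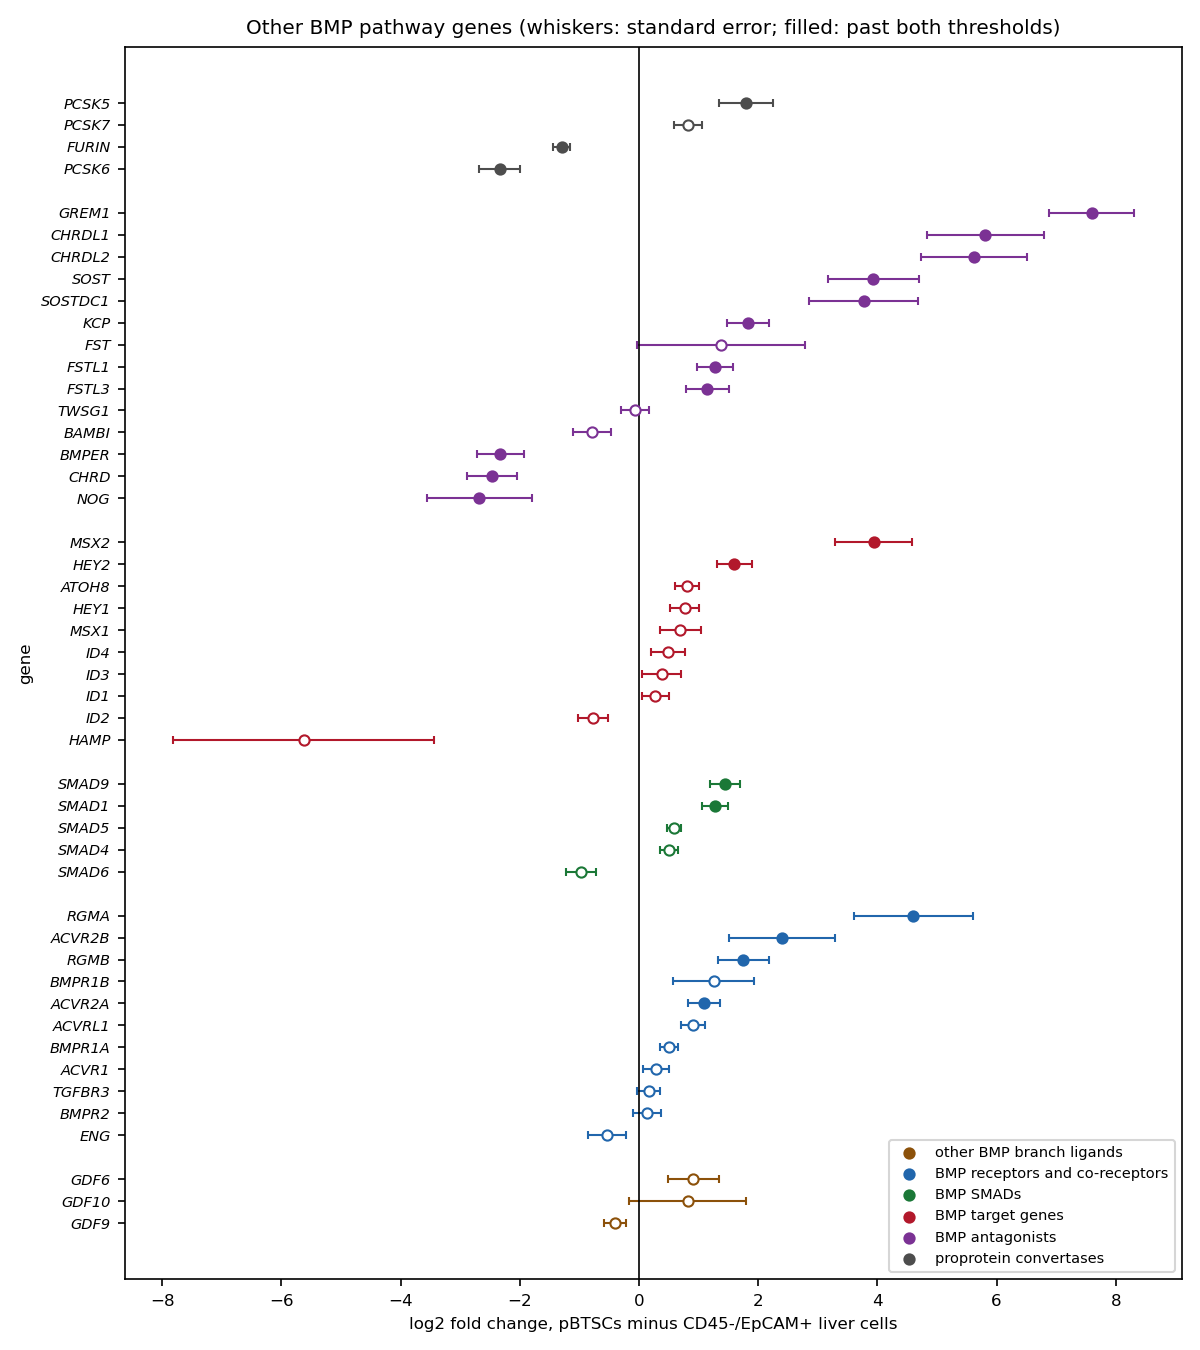
Log2 fold change (x axis, log2(normalized count + 1) scale) of the other tested BMP pathway genes (y axis, grouped by role) in pBTSCs against CD45-/EpCAM+ liver cells, with the standard error as whiskers and filled circles for calls. Antagonists stand at both ends, from -2.68 for NOG to 7.59 for GREM1, and HAMP has the widest error.

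Between the liver sorts no ligand was called, and the levels of BMP10 and GDF2 overlapped. BMP10 averaged 905 ± 296 normalized counts (SD, n = 4) in CD45-/EpCAM+, 799 ± 196 (n = 2) in CD31+, 754 ± 251 (n = 5) in CD45+, 725 ± 7.31 (n = 2) in CD146+ and 646 ± 144 (n = 2) in CD45-/EpCAM-. GDF2 averaged 969 ± 389 in CD45-/EpCAM+, 940.5 ± 178 in CD31+, 914 ± 322 in CD45+, 678 ± 369 in CD146+ and 616 ± 206 in CD45-/EpCAM-. Neighbours in the orders of these 2 genes differed by less than the larger of their SDs. Of the 8 members, 0 were called between CD45-/EpCAM+ and CD45-/EpCAM-, where 2.8% of all genes were called. The nearest to a call was BMP5, which was 98.2, 257, 260.3 and 277 in S4, S9, S13 and S19 and 49.1 and 114 in S5 and S14. S4 lay between both CD45-/EpCAM- libraries, so the groups overlapped, and the log2 difference was 1.45 ± 0.45 (adjusted p = 0.0743). Leaving out S4 or S14 gave 1.81 (adjusted p = 0.0397) or 2.05 (adjusted p = 0.025). BMP7 averaged 157 in CD45-/EpCAM+ and 72.7 in CD45-/EpCAM-, a log2 difference of 1.07 ± 0.46 that did not pass the test (adjusted p = 0.181). The erythroid markers were far higher in CD45-/EpCAM- cells, with a summed level of 4829 to 14035 against 72.8 to 1236 in CD45-/EpCAM+ cells, and their part in the lower BMP5 was not tested.

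Between CD45-/EpCAM+ and CD45+, 0 members and 0% of all genes were called by limma, with 214 genes at an unadjusted p under 0.05. The member differences ran from -0.79 ± 0.92 for BMP3 to 0.26 ± 0.36 for BMP10. Between the endothelial sorts CD31+ and CD146+ and the other libraries stored under the numbers 16 to 23, 0 members and 0% of all genes were called by limma, with 20 genes at an unadjusted p under 0.05. BMP2 and BMP6, for which sinusoidal endothelial cells are the known source, were 668 to 797 and 538 to 576 in the endothelial sorts and 604 to 799 and 520 to 566 in the others, so the ranges overlapped. The log2 differences were 0.10 ± 0.12 for BMP2 and 0.04 ± 0.07 for BMP6 (adjusted p = 0.99 for both).

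BMP2 differed among the liver libraries more by storage number than by sort. The number in each library name is a storage number, and these numbers fall into 5 runs of neighbouring numbers. What a run stands for is not given in the labels. Each run also holds a pBTSC library (S2, S7, S11, S15 or S20), and by the study's account these came from different piglets. Whether the liver libraries of a run came from the same piglet is not stated, so storage run and donor cannot be told apart. BMP2 was 159 to 278 normalized counts in S3 to S5, 254 to 282 in S8 and S9, 369 and 480.05 in S14 and S12, 604 to 681 in S16 to S19, and 797 and 799 in S21 and S23. Among these 13 libraries the BMP2 ranges of the runs overlapped only between S3 to S5 and S8 and S9. The shallow library S13, of the run of S12 and S14, held 668 on 26 reads, inside the range of S16 to S19, and the shallow library S22 held 730 on 14 reads. Over the 13 liver libraries that were not shallow, 94.0% of the spread of BMP2 lay between runs and 47.2% between sorts, against a median over all named genes of 72.1% and 41.3%. Runs and sorts are not balanced, so both shares contain some of the other.

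BMP6 and GDF2 also followed the runs. BMP6 was 487 to 709 in S3 to S5 and 309 to 335 in S8 and S9, then 373 to 441, 520 to 566 and 543 to 559 in the later runs, with 86.6% of its spread between runs and 11.7% between sorts. GDF2 was lowest in S3 to S5, at 409 to 493, and 762 to 1376 in the other deep libraries, with 83.7% between runs and 15.8% between sorts. BMP5 had 79.7% between runs and 61.5% between sorts, the largest share between sorts among the members. For BMP10 the shares were 49.9% and 7.84%, and for BMP7 44.3% and 45.9%.

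HAMP varied over the same runs to a far greater extent than any ligand. It was 2039.6, 3552 and 5847 normalized counts in S3, S4 and S5, 1149 and 1049 in S8 and S9, 24.5 and 34.6 in S12 and S14, between 0.941 and 2.69 in S16 to S19, and 12.2 in both S21 and S23. The runs with the lowest BMP2 were those with the highest HAMP, and the libraries S16 to S23, with the highest BMP2, had HAMP at or below 12.2. BMP6 was high in S3 to S5 and again in S16 to S23. These are levels of whole sorted preparations, and with 5 runs no correlation is given.

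**Figure D4:**
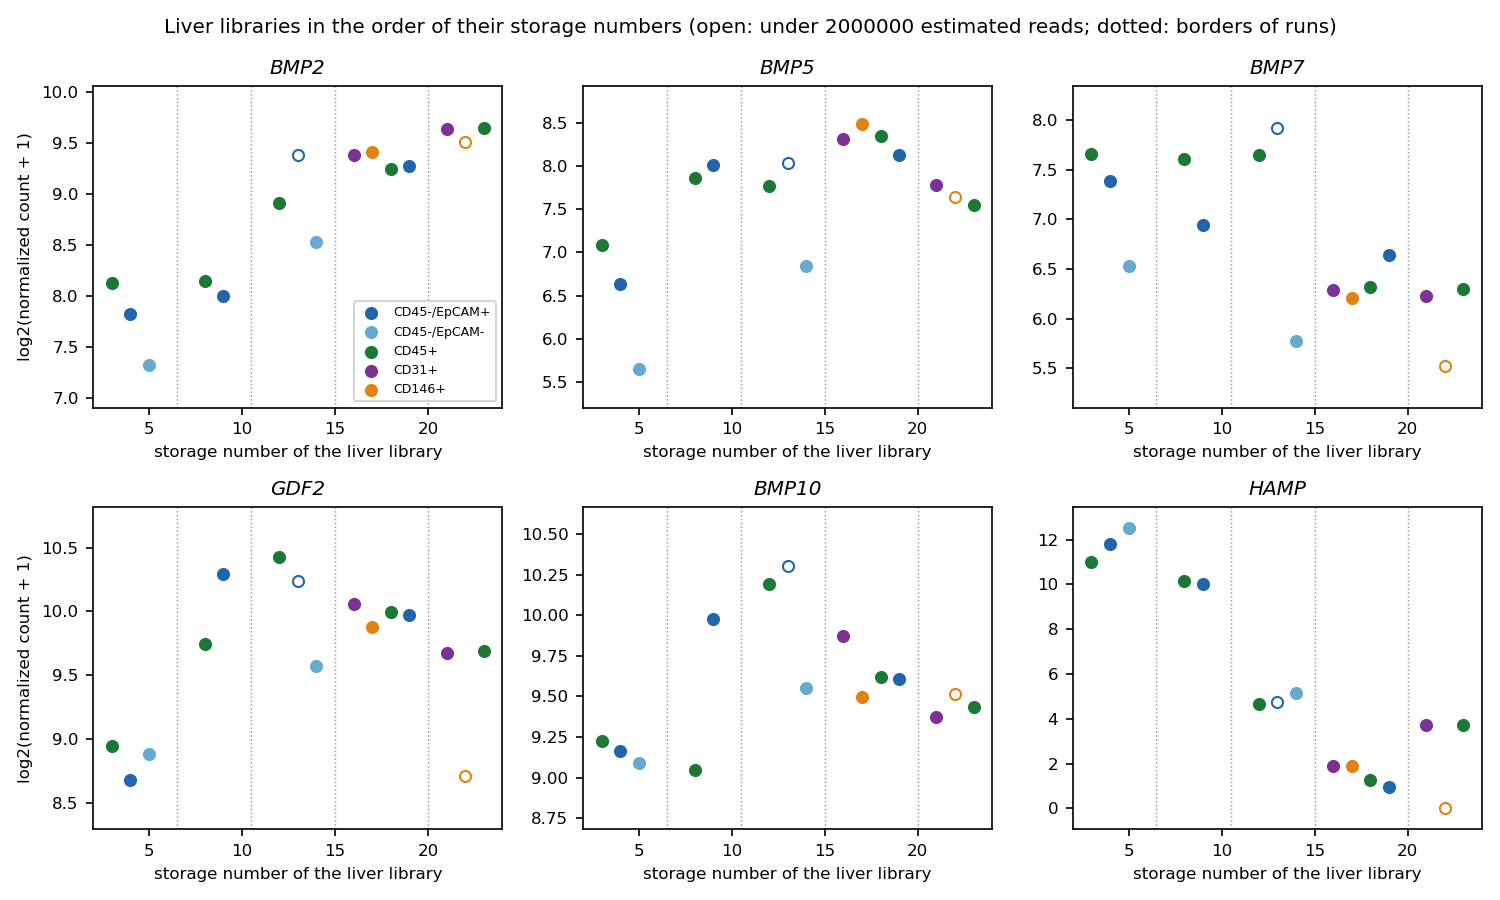
Level of BMP2, BMP5, BMP7, GDF2, BMP10 and HAMP as log2(normalized count + 1) (y axis, a range of its own in each panel) in the liver libraries ordered by storage number (x axis), with colours for sorts, open circles for the shallow libraries and dotted lines between runs. BMP2 lies at 159 to 282 normalized counts in S3 to S9 and at 604 to 799 in S16 to S23, while HAMP is above 1000 in S3 to S9 and at or below 12.2 in S16 to S23.

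Tested over the 15 liver libraries with the sort as a covariate, libraries S16 to S23 against S3 to S14 had 3.49% of all genes called and 1 member, BMP7. BMP7 was 91.5 to 200.04 in S3 to S5, 122 and 194 in S9 and S8, 199.9, 241 and 53.9 in S12, S13 and S14, and 45.1 to 98.7 in S16 to S23. The 45.1 is that of the shallow library S22, on an estimated 0.86 reads, and the 241 that of S13, on 9.38 reads. Only the CD45-/EpCAM- libraries of the earlier set reached down into the range of the later one. The log2 difference was -1.12 ± 0.30 (adjusted p = 0.0462), and the call was lost when any of S3, S4, S8, S12, S16, S18, S19, S21 or S23 was left out (adjusted p from 0.061 to 0.189). BMP2 had a log2 difference of 0.98 ± 0.36 (adjusted p = 0.115), and was called without the shallow libraries (1.16, adjusted p = 0.0263) or without S13 alone (1.16, adjusted p = 0.0276). HAMP had a difference of -6.80 ± 1.94 (adjusted p = 0.055) and was called without the shallow libraries (-7.48, adjusted p = 0.0271). By limma's interaction term, 0 members and 0% of all genes had a set difference called unequal between CD45+ and CD45-/EpCAM+, with 37 genes at an unadjusted p under 0.05. The CD45-/EpCAM+ side of S16 to S23 was the single library S19, assumed to vary like the others, so these counts do not show that the set differences were equal. The runs of S3 to S14 also hold the pBTSC libraries S2, S7 and S11 of H2B-GFP piglets. Those of S16 to S23 hold S15 and S20 of wild-type piglets. The line of the animals behind the liver libraries is not stated, so line, donor and storage set cannot be told apart. Erythroid markers moved with the storage sets, with summed levels of 356 to 14035 in S3 to S14 and 38.9 to 171 in S16 to S23. Their part in the BMP7 and BMP2 values was not tested.

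The named genes whose levels followed each ligand most closely over the 13 deep liver libraries are given as a description, from 13289 named genes, the libraries sharing the runs described above. GDF2 was nearest to ADAMTSL2 (Pearson r = 0.98), a secreted matrix protein that regulates TGF-beta availability, and then to TMEFF2 and GOLGA7 (0.97 and 0.96). BMP10 was nearest to LHX2 (0.90), the stellate cell factor, followed by CNTN3 and ZNF79 (both 0.87). BMP10 and GDF2 had a Pearson r of 0.82 with each other. BMP2 was nearest to ATXN3, CABLES1 and CYLD (0.98, 0.98 and 0.98), BMP5 to CREB3L1, CNTNAP1 and P2RY1 (0.97, 0.97 and 0.96) and BMP6 to ITGA8, FOXO4 and WDR59 (0.94, 0.92 and 0.90). BMP7 was nearest to TMEM54, TCFL5 and SPINT2 (0.96 each), the last an epithelial inhibitor of serine proteases. BMP4 was nearest to LGALS1, HTRA4 and MFAP2 (0.87, 0.85 and 0.84) and BMP3 to INSC, ARHGAP33 and NMUR2 (0.87, 0.84 and 0.82), the lowest values among the members.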

How the data were processed

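Poly(A) RNA of pBTSCs and sorted pig liver cells was sequenced with a stranded kit. The deposited values are the authors' normalized counts, here treated as a signal at or above 0, in 20 library columns of 1 table. STAR, Salmon and DESeq2 are listed in the submitters' processing notes, whereas versions, genome build and annotation are not given in the sources used here, so no coordinates are given. The mean column was not used, and 0 columns were without a sample. The value of 1 read was estimated from the steps between low values, giving 455000 to 77800000 reads per library. Values at or under 3 reads were treated as not detected, which covers counting error only.

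Log2(normalized count + 1) entered limma 3.58.1 under R 4.3.3 with a trended empirical Bayes step. The 15576 genes tested reached 10 normalized counts in 2 or more of 20 libraries, p-values were adjusted over all of them by the Benjamini-Hochberg method, and the 6 groups shared 1 fit in comparisons with pBTSCs and between CD45-/EpCAM+ and other sorts. A fold change on this scale understates the change of low genes. The step was tested on simulated data. No pair of libraries of 1 group agreed within sampling noise, the closest differing by 2.79 times the counting variance. Pairs of different sorts with the shallow CD146+ library S22 were closer. It differed by 1.43 times from the CD31+ library S21 and by 1.74 times from the CD45+ library S23.

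Members and gene lists were chosen with earlier results of these data known. All 8 members are named. From each list, up to 3 called genes per direction with the largest fold change were to be named, and others are named only for their role or because a call changed, chosen after their values were seen. Alternatives were other pseudocounts, filters and scaling, array weights, fewer groups or libraries, and, chosen after seeing the data, the storage run as a term and list counts without shallow libraries. Python 3.11.15, pandas 2.3.3, numpy 2.4.6, scipy 1.17.1 and matplotlib 3.10.9 were used.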

Additional observations from a re-analysis of the deposited data

Results flagged for a closer look

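Within groups of 4 or 5 libraries, the library farthest out was set against the range of its group for each member (24 groups tested, of which chance flags about 1 in 20). BMP6 was 632 normalized counts in the pBTSC library S7, against 243 to 319.5 in the other pBTSC libraries. BMP5 was 98.2 normalized counts in the CD45-/EpCAM+ library S4, against 257 to 277 in the other libraries of that sort. The CD45+ and CD45-/EpCAM- libraries of the same run of storage numbers, S3 and S5, held the lowest BMP5 of their own sorts, 135 and 49.1. Why these libraries stood apart was not tested.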

How the results depend on the processing

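Over 1672 recomputed member differences, 19 fell below and 19 rose above the thresholds, and 69 changed sign, in each case without a call under either setting. With a pseudocount of 0.1 the members called fell to 1 against CD45-/EpCAM+ and to 0 between S16 to S23 and S3 to S14. Against CD45+ it rose to 2 with a pseudocount of 10, rescaling, array weights, only the groups compared, the storage run as a term, or without the shallow libraries, BMP3 being added each time. Without the shallow libraries 2 members were called between the storage sets. Leaving out 1 library at a time gave 1 to 2 members called against CD45-/EpCAM+, 1 to 3 against CD45-/EpCAM-, 1 to 2 against CD45+, 2 to 4 against CD31+ and CD146+, 0 to 1 between CD45-/EpCAM+ and CD45-/EpCAM-, and 0 to 2 between the storage sets. The cause of these changes was not tested. Over all genes, 436 calls between CD45-/EpCAM+ and CD45-/EpCAM- became 718 with rescaling, 879 without the shallow libraries, 39 with array weights and 0 with only the groups compared, and 0 to 1489 leaving out 1 library. The 544 calls between the storage sets became 1115 without the shallow libraries, 2034 with array weights, and 90 to 749 leaving out 1 library. The 5698 calls against CD45-/EpCAM- fell to 3397 at the lowest. Without a filter, 1 gene was called between the endothelial and other sorts and 4 in the interaction. Higher genes were 72.5% of the calls between CD45-/EpCAM+ and CD45-/EpCAM- and 85.1% with rescaling. Rescaling moved the median log2 fold change of all genes from 0.08, 0.04, 0.07 and 0.14 to 0.39, 0.51, 0.31 and 0.43 in the 4 comparisons with pBTSCs, and from -0.02 to 0.14 between CD45-/EpCAM+ and CD45-/EpCAM-, and BMP2 and BMP6 are to be read against that shift. The interaction could not be fitted without S19. The labels give no replicate numbers that groups share, so libraries were not paired by number. With the storage run as a term, 2, 3, 2 and 3 members were called against CD45-/EpCAM+, CD45-/EpCAM-, CD45+ and CD31+ and CD146+, and 0 in the 3 comparisons between liver sorts. Depth limits BMP3 in S13 and S22, BMP4 and BMP7 in S22, and BMP10 and GDF2 in S15.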
